A study of Saccharomyces cerevisiae with 12 samples.

Results

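The question addressed here is whether chronological aging changed each transcript to the same degree in *TRA1* and in *tra1Q3* cells of *Saccharomyces cerevisiae*. A gene was included when 3 or more of the 12 RNA sequencing libraries held 10 or more counts of it, which gave 6247 of the 6691 genes in the table. The libraries fall into 4 groups of 3, namely *TRA1* cells at day 0, *TRA1* cells at day 3, *tra1Q3* cells at day 0 and *tra1Q3* cells at day 3. Day 0 stands for freshly grown cells and day 3 for cells aged in culture for 3 days. The *tra1Q3* allele carries arginine to glutamine changes in the PI3K domain of Tra1. Both genotypes were built in W303A (*MATa*, with *ura3-1*, *his3-11*, *leu2-3*, *trp1-1*, *ade2-1* and *can1-100*). Both alleles were integrated with a Flag tag and the markers *URA3* and *HIS3*, and both genotypes carry the plasmid YCplac111-*DED1pr-YHR100*, so the control cells are tagged and marked too. According to the study's methods the cultures grew in glucose medium lacking leucine, whereas the labels name mid-log growth in synthetic complete medium and another RNA kit. The replicates of aged *tra1Q3* cells are numbered 2, 3 and 4. The study calls the 3 libraries of a group biological replicates. The sources do not say whether these started from separate transformants.

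Tra1 is the large subunit that transcription activators contact in the histone acetyltransferase complexes SAGA and NuA4, and both complexes are recruited to promoters through it. When glucose runs out, yeast cells pass through the diauxic shift, turn to ethanol and acetate, and switch on the glyoxylate cycle, gluconeogenesis, fatty acid oxidation and stress protectants, while genes for ribosomes are switched down. An interaction means that this program moved by a different amount, or in another direction, in one genotype than in the other.

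The age change of a gene is its log2 difference between day 3 and day 0 within a genotype. The interaction score is the age change in *TRA1* cells minus the age change in *tra1Q3* cells, so a positive score means a higher value of the age change in *TRA1* cells. Both were tested in one fit of all 12 libraries with edgeR's quasi-likelihood test, and were called at a Benjamini-Hochberg adjusted p of 0.05 or less together with an absolute value over 1 on the log2 scale. Normalized counts are counts scaled to a common library size with TMM factors. Total counts per library ran from 20662125 to 28079682.

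Some libraries stand apart and are named here because results rest on them. Replicate 2 of aged *TRA1* cells differed from replicates 1 and 3 by a median chi-square ratio of 75.2 and 79.1, where 1 is counting error alone, while replicates 1 and 3 gave 10.2 and pairs within the other groups 2.84 to 4.46. Libraries were scaled by total counts for this ratio, so an offset that TMM factors would remove also enters it. The SD of log2 differences, which such an offset leaves unchanged, was 0.516 and 0.565 for those pairs and 0.256 for replicates 1 and 3. Replicates 2 and 3 of *tra1Q3* cells at day 0 differed from replicate 1 in the direction of the aged libraries, and the cause was not tested. Fitted shares of the aged *TRA1* profile were 0.752% and 0.699%, and those of the aged *tra1Q3* profile were 0.510% and 0.372%. In replicates 2 and 3 of *TRA1* cells at day 0 the fitted shares of the aged *tra1Q3* profile were 0.149% and 0.268%. Those of the aged *TRA1* profile were 0 there. Replicate 1 of each day 0 group was the base of the fit, so its own share was not estimated. Each leading count and gene below was therefore also computed without aged *TRA1* replicate 2 and without *tra1Q3* day 0 replicates 2 and 3. Fewer cells expressing a gene and less transcript per cell cannot be told apart in bulk RNA.

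Markers of the labelled mating type were checked first. The 7 *MATa* marker genes were all detected and summed to 27750 to 29590 normalized counts in *TRA1* cells and 62760 to 65930 in *tra1Q3* cells at day 0. At day 3 the sums were 7631 to 8742 and 30930 to 38380. The 4 *MATalpha* markers, none of them at 0, summed to 1156 to 1203 and 19630 to 21610 at day 0, and to 2691 to 3136 and 10980 to 13440 at day 3. Markers of the other mating type were thus present next to those of the labelled one, mainly in *tra1Q3* cells, and their part in the interaction was not tested. *SAG1*, the alpha-agglutinin gene of *MATalpha* cells, had 759.4 to 792.6 in *TRA1* cells and 16300 to 17990 in *tra1Q3* cells at day 0. With age *SAG1* rose to between 1759 and 2112 in *TRA1* cells and fell to between 7104 and 8944 in *tra1Q3* cells, a score of 2.45 (SE 0.135, adjusted p = 3.14e-08, edgeR). Both *TRA1* and *tra1Q3* reads count toward *TRA1* itself (YHR099W, chromosome VIII from 302761 to 313995). Its normalized counts in *TRA1* cells were 16400, 15920 and 15790 at day 0 and 13460, 14450 and 14450 at day 3. In *tra1Q3* cells they were 24390, 22810 and 22560 at day 0 and 44460, 44890 and 43130 at day 3. The genotypes did not overlap on either day, and at day 3 this held for 4801 of all 6247 tested genes. The *TRA1* transcript had a score of -1.11 (SE 0.0997, adjusted p = 1.5e-06, edgeR), with age changes of -0.18 and 0.93. With library totals in place of TMM factors its score was -0.99, which no longer passes the size threshold.

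Of the 6247 genes, 1968 had a called interaction (31.5% of those tested), 1116 with a positive score (17.9%) and 852 with a negative one (13.6%). At a score over 2.5 there were 273 genes (4.37%), 124 positive and 149 negative. Without aged *TRA1* replicate 2 the count over 1 was 1972, and without *tra1Q3* day 0 replicates 2 and 3 it was 1902. The second of these fits, here and below, has 1 *tra1Q3* library at day 0, which is assumed to vary like the other groups. The median score over all tested genes was 0.15 with TMM factors, 0.26 with library totals and 0.11 with the size factors of DESeq2, so scores are read against that shift. With age, 1253 genes rose (20.1%) and 1237 fell (19.8%) in *TRA1* cells, against 1415 (22.7%) and 1464 (23.4%) in *tra1Q3* cells. Both genotypes had a called age change in 1681 genes, and these had the same direction in 1623 and opposite directions in 58. Of the 1623 genes, 1118 (68.9%) had no called interaction, and for 706 (43.5%) the 95% interval of the score lay within 1 on either side of 0.

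Called genes were sorted by their pair of age changes. Opposite directions were found in 22 genes that rose in *TRA1* and fell in *tra1Q3* cells (0.352% of the genes tested) and in 36 with the reverse pattern (0.576%). An age change called in *TRA1* cells only was found in 260 genes that rose (4.16%) and 190 that fell (3.04%). In *tra1Q3* cells only, 359 genes rose (5.75%) and 318 fell (5.09%). Both genotypes rose with a larger change in *TRA1* cells for 155 genes (2.48%) and with a larger change in *tra1Q3* cells for 97 (1.55%). Both fell with a larger change in *TRA1* cells for 55 genes (0.88%) and with a larger change in *tra1Q3* cells for 198 (3.17%). The remaining 278 genes (4.45%) had a called score but no called age change in either genotype. "Only" means that the other genotype's change missed the call. Among the 260 genes that rose in *TRA1* cells only, 139 still had an adjusted p of 0.05 or less in *tra1Q3* cells, as did 121 of the 190 that fell. Of the genes called in *tra1Q3* cells only, 195 of the 359 that rose and 189 of the 318 that fell had one in *TRA1* cells.

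**Figure D1:**
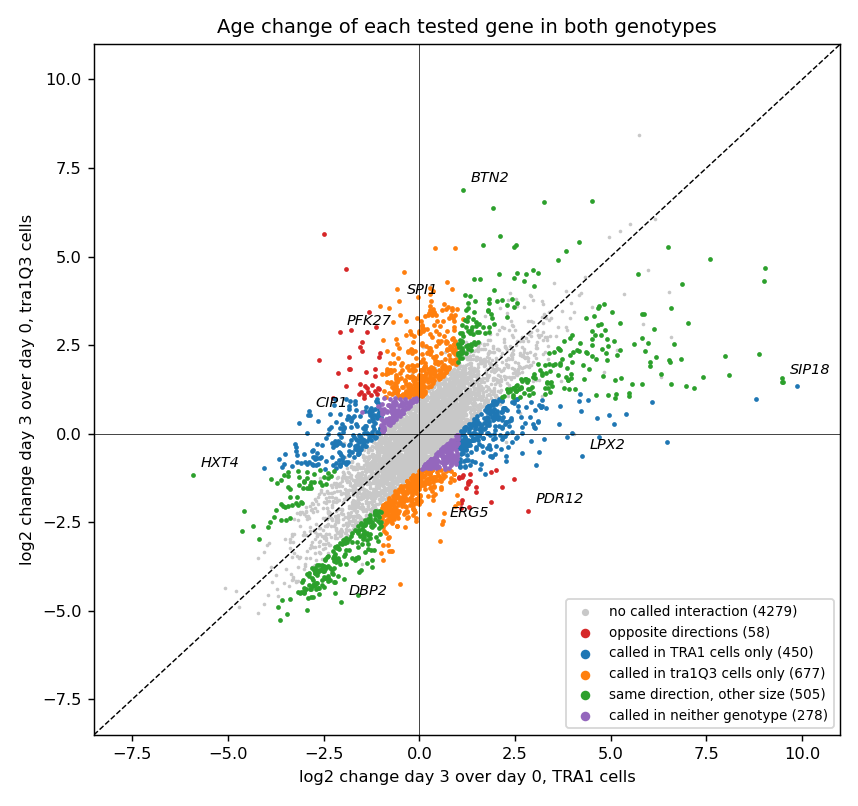
Each point is one of the 6247 tested genes, placed by its age change on the log2 scale, with TRA1 cells on the horizontal axis and tra1Q3 cells on the vertical axis, and coloured by class, with the number of genes per class in the key. Points on the dashed line changed equally. The 58 genes with opposite directions lie in the upper left and lower right, and SIP18, with 9.49 in TRA1 and 1.47 in tra1Q3 cells, lies far to the right.

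**Figure D2:**
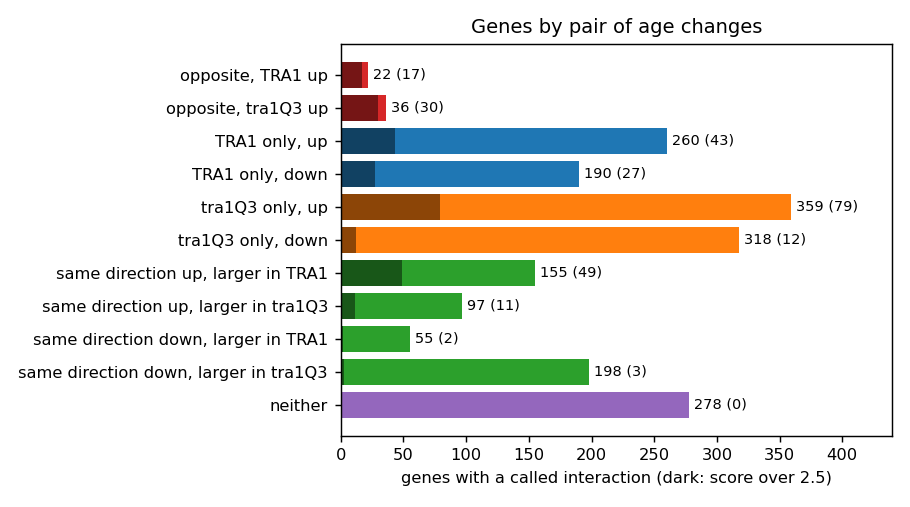
Bars give the number of genes with a called interaction in each subclass, and the dark part of each bar gives those with an absolute score over 2.5 (number in brackets). The largest subclass held the 359 genes that rose in tra1Q3 cells only, 79 of them over 2.5, whereas 3 of the 198 genes that fell more in tra1Q3 cells were over 2.5.

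The genotypes differed far more at day 3 than at day 0 for most of these genes. A genotype difference was called for 372 genes at day 0 (5.95%) and for 2043 at day 3 (32.7%). The score equals the genotype difference (*tra1Q3* over *TRA1*) at day 0 minus that at day 3. The split by day therefore restates the values that made the calls and is no separate test. Of the 1968 genes with an interaction, 1389 had a genotype difference at day 3 only, 90 at day 0 only, 118 on both days and 371 on neither. In 58 of the 118 the sign turned over between the days. Genes with opposite directions had a called genotype difference at day 0 in 7 of 22 and 12 of 36 cases, whereas 2 of the 198 genes that fell more in *tra1Q3* cells and 6 of the 318 that fell in *tra1Q3* cells only had one.

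Promoters were read in the reference genome to describe the subclasses further. Windows ran from 250 bases before to 50 bases after the start of the coding sequence, and motifs were sought on both strands. The reference strain is S288C, so W303A may differ in single bases. The PAC motif (GCGATGAG) and the RRPE motif (AAAAATTT), both known from promoters of ribosome biogenesis genes, were found in 17.7% and 40.4% of the 198 windows of genes that fell more in *tra1Q3* cells. Over all 6224 windows of tested genes the shares were 3.82% and 13.9%. The stress response element (AGGGG, the site of Msn2 and Msn4) was found in 31.1% of windows of genes that rose in *tra1Q3* cells only, in 35.4% for those that rose more in *tra1Q3* cells and in 30.3% for those that rose more in *TRA1* cells, against 21.6% of all windows and 13.6% for genes that fell more in *tra1Q3* cells. A heat-shock element core (GAANNTTC or TTCNNGAA, the site of Hsf1) was found in 22.9% of all windows. Among the 10 subclasses with a called age change its share ran from 20.8% for genes that rose in *TRA1* cells only to 33.3% of the 36 windows of genes that fell in *TRA1* and rose in *tra1Q3* cells. It was 28.2% for genes that rose in *tra1Q3* cells only and 22.9% for those that rose more in *tra1Q3* cells. In the Hsp90 list 9 of 13 windows held it, in the small heat-shock and sorting list 6 of 9, and in the cytosolic Hsp70 list 5 of 12. For mitochondrial chaperones and proteases 3 of 13 did (23.1%), and for chaperones of the endoplasmic reticulum 4 of 17 (23.5%), near the share of all windows. A match is a description of the letters and no evidence of binding.

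The stretches below run from 250 to 51 bases before the start codon (genome build R64, 5′ to 3′ on the strand of the gene). They are shown for the first named gene of 3 of these subclasses, and for *HSP82* as a heat-shock gene chosen after its values were seen. Capitals mark PAC and RRPE matches in *DBP2*, and stress response and heat-shock element matches in the others. *DBP2* holds 1 PAC match, 155 bases before the start, and 2 RRPE matches. *HSP82* holds 1 stress response element and 2 heat-shock element cores, *BTN2* holds 1 core, and *REE1* holds neither motif in this stretch. No match overlaps another.
DBP2 (chrXIV:413389-413588, plus strand): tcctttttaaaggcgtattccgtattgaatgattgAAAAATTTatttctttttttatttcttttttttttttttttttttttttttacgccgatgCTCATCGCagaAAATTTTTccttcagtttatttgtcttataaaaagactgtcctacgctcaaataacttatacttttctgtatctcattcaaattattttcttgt
REE1 (chrX:22883-23082, plus strand): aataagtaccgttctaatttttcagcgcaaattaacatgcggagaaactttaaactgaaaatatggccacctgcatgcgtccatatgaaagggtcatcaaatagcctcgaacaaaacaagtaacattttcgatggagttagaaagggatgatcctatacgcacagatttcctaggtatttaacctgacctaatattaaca
BTN2 (chrVII:772204-772403, plus strand): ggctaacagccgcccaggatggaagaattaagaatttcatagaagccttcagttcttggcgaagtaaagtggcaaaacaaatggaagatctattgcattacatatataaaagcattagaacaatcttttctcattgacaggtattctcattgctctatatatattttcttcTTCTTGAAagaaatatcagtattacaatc
HSP82 (chrXVI:98676-98875, minus strand): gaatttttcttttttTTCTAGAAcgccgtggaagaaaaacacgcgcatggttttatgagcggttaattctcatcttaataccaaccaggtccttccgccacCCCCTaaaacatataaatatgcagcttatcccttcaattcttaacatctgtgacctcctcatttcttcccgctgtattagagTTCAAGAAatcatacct

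Among the genes that rose in *TRA1* and fell in *tra1Q3* cells, *PDR12* had the largest score by the rule used for naming. It encodes the plasma membrane pump that exports weak organic acids. *PDR12* (YPL058C, chromosome XVI from 445842 to 450377) had 4269, 3767 and 3977 normalized counts in *TRA1* cells at day 0 and 31130, 23330 and 31600 at day 3. In *tra1Q3* cells it had 9770, 9766 and 9573 at day 0 and 2170, 2068 and 2229 at day 3. The *tra1Q3* libraries were thus above the *TRA1* libraries at day 0 and below them at day 3. They did not overlap on either day, which at day 3 held for 4801 of all 6247 tested genes. *PDR12* had age changes of 2.84 (SE 0.112) and -2.17 (SE 0.110), and its score was 5.01 (SE 0.157, adjusted p = 1.01e-09, edgeR).

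*CTT1*, the cytosolic catalase gene (YGR088W, chromosome VII from 654634 to 656322), followed the same pattern. Its normalized counts in *TRA1* cells were 12360, 12610 and 12600 at day 0 and 52350, 24170 and 59840 at day 3. In *tra1Q3* cells they were 18120, 18600 and 18100 at day 0 and 4202, 5151 and 4958 at day 3. Aged *TRA1* replicate 2 was the lowest of its group and still stood above every *tra1Q3* library. The score was 3.80 (SE 0.354, adjusted p = 2.01e-06, edgeR) and 4.09 without that replicate. *KNH1*, which takes part in the synthesis of cell wall beta-glucan, rose from between 776.2 and 836.6 to between 4264 and 4893 in *TRA1* cells and fell from between 245.9 and 268.8 to between 80.02 and 121.2 in *tra1Q3* cells, a score of 3.76 (SE 0.165). Also in this subclass were *ACO1*, the mitochondrial aconitase of the TCA cycle, with a score of 3.11, and *LYS20*, a homocitrate synthase of lysine synthesis, with 3.19.

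Genes with the reverse pattern were led by *PFK27*, *EMI2* and *MGA1*. *PFK27*, which makes the glycolytic activator fructose 2,6-bisphosphate, fell by 2.08 in *TRA1* cells and rose by 2.87 in *tra1Q3* cells. *EMI2*, a hexokinase-related gene (YDR516C, chromosome IV from 1474974 to 1476476), had 11930, 11650 and 11820 normalized counts in *TRA1* cells at day 0 and 3491, 3017 and 3675 at day 3. Its counts in *tra1Q3* cells were 2189, 2140 and 2079 at day 0 and 16420, 16090 and 16120 at day 3. The order of the genotypes was reversed between the days, again with no overlap, which at day 3 held for 4801 of all 6247 tested genes. Its score was -4.72 (SE 0.107, adjusted p = 2.08e-10, edgeR). *HXK1*, hexokinase 1, fell from a mean of 34140 to one of 13780 in *TRA1* cells. It rose from 24840 to 268000 in *tra1Q3* cells. It had a score of -4.74, but its coding sequence overlaps another one, which limits its counts. *MGA1*, which resembles heat-shock transcription factors, had a score of -4.71 (SE 0.180). *KAR2*, the Hsp70 of the endoplasmic reticulum, had age changes of -1.36 and 1.28, *INO1*, inositol 3-phosphate synthase, -1.83 and 2.18, and *RAS2*, a GTPase upstream of protein kinase A, -1.23 and 1.37.

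**Figure D3:**
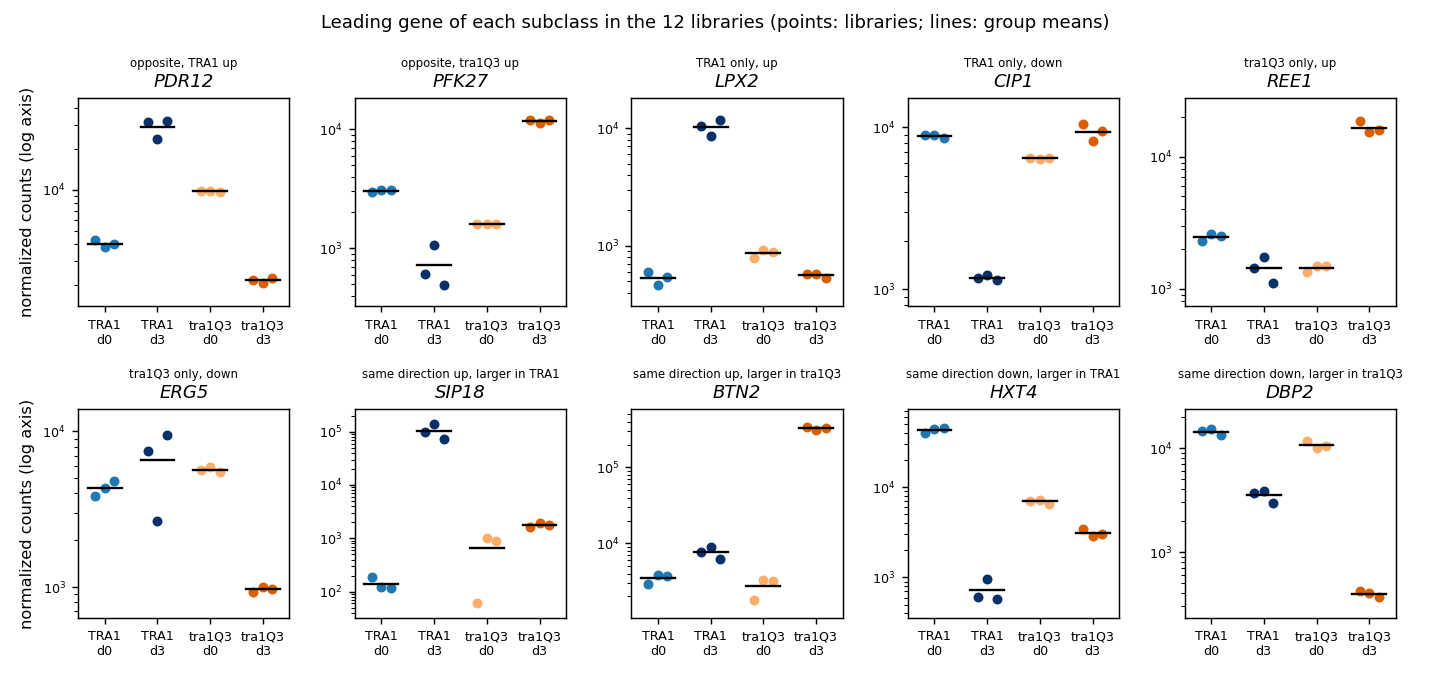
Normalized counts on a log axis in the 12 libraries for the first gene named in each of the 10 subclasses. Points are libraries, horizontal lines are group means, and d0 and d3 are day 0 and day 3. PDR12 and PFK27 changed in opposite directions in the genotypes, LPX2 and CIP1 mainly in TRA1 cells, REE1 and ERG5 mainly in tra1Q3 cells, and in SIP18 replicate 1 of tra1Q3 day 0 (61.93) lies far below replicates 2 and 3 (1018 and 875.5).

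Of the genes that rose in *TRA1* cells only, *LPX2* (YKL050C, chromosome XI from 342852 to 345620) had 601, 468.7 and 545.1 normalized counts at day 0 and 10490, 8526 and 11830 at day 3 in *TRA1* cells. In *tra1Q3* cells it had 791, 917.4 and 894.5 at day 0 and 578.2, 574.7 and 530.7 at day 3. It thus rose by 4.25 in *TRA1* cells and had a change of -0.63 in *tra1Q3* cells, a score of 4.88 (SE 0.180, adjusted p = 2.57e-09, edgeR). *PDH1*, 2-methylcitrate dehydratase of propionate breakdown, had 421.2 to 472.3 normalized counts at day 0 and 10830 to 18880 at day 3 in *TRA1* cells. Its *tra1Q3* libraries stayed between 834.2 and 1237 on both days, and its score was 4.82 (SE 0.247, adjusted p = 1.98e-08, edgeR). *PMA2*, the minor plasma membrane proton pump, had 20560, 3321 and 25160 normalized counts in aged *TRA1* cells, so replicate 2 was far below the others. Its score was 4.80 (SE 0.757, adjusted p = 1.44e-04, edgeR) with all libraries and 5.26 without that replicate.

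The genes that fell in *TRA1* cells only included *CIP1*, a cell cycle inhibitor gene (YPL014W, chromosome XVI from 527547 to 528692). Its normalized counts in *TRA1* cells were 8960, 9010 and 8553 at day 0 and 1170, 1223 and 1141 at day 3. The *tra1Q3* libraries had 6517, 6384 and 6514 at day 0 and 10470, 8204 and 9552 at day 3. *TRA1* cells were above *tra1Q3* cells at day 0 and far below them at day 3, with no overlap on either day. At day 3 this held for 4801 of all 6247 tested genes. The age changes were -2.91 and 0.54, and the score was -3.45 (SE 0.116, adjusted p = 1.69e-09, edgeR). *AAC3*, the ADP/ATP carrier isoform used without oxygen, had a score of -3.38 (SE 0.254), at 18.89 to 220.3 normalized counts in all libraries. *TRR1*, cytosolic thioredoxin reductase, fell by 2.19 in *TRA1* cells and had a change of -0.19 in *tra1Q3* cells. *HAC1*, the transcription factor of the unfolded protein response, had -2.00 and 0.14, with a coding sequence that overlaps another one.

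Among the 359 genes that rose in *tra1Q3* cells only, *REE1* (YJL217W, chromosome X from 23133 to 23729), linked to control of the enolase gene *ENO1*, had 2296, 2603 and 2523 normalized counts in *TRA1* cells at day 0 and 1437, 1729 and 1097 at day 3. Its counts in *tra1Q3* cells were 1328, 1481 and 1474 at day 0 and 18640, 15350 and 15890 at day 3. Its score was -4.34 (SE 0.203, adjusted p = 1.05e-08, edgeR). *SPI1*, a cell wall protein gene induced in stationary phase, had 7498 to 8255 at day 0 and 4636 to 6050 at day 3 in *TRA1* cells. That change of -0.53 missed the size threshold. In *tra1Q3* cells *SPI1* rose from between 6554 and 7089 to between 87030 and 93960, a score of -4.27 (SE 0.147). *SUC2*, which encodes invertase and is repressed by glucose, had 1652 to 1787 normalized counts in all 6 *TRA1* libraries. In *tra1Q3* cells *SUC2* had 617.4, 622.6 and 598.9 at day 0 and 9806, 8383 and 8474 at day 3. Its change was -0.03 in *TRA1* cells and 3.86 in *tra1Q3* cells, and its score was -3.89 (SE 0.0979, adjusted p = 2.6e-10, edgeR).

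Genes that fell in *tra1Q3* cells only were led by *ERG5*, a desaturase of ergosterol synthesis (YMR015C, chromosome XIII from 300869 to 302485). It had 5650, 5916 and 5487 normalized counts at day 0 and 932, 1004 and 979.2 at day 3 in *tra1Q3* cells. In *TRA1* cells it had 3838, 4349 and 4816 at day 0 and 7489, 2680 and 9503 at day 3, so aged replicate 2 lay below the day 0 libraries while the others lay above them. The score was 3.15 (SE 0.462, adjusted p = 8.19e-05, edgeR) and 3.51 without that replicate. *BAP2*, a permease for branched-chain amino acids, had a score of 2.96 (SE 0.162), and *EXG1*, the main exo-glucanase of the cell wall, had 2.89 (SE 0.269).

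The largest scores of all named genes belonged to genes that rose in both genotypes. *GRE1*, a hydrophilin gene (YPL223C, chromosome XVI from 128632 to 129138), had 519.7, 291.5 and 243.9 normalized counts in *TRA1* cells at day 0 and 239900, 272500 and 236300 at day 3. In *tra1Q3* cells it had 175.5, 2418 and 2293 at day 0 and 4292, 5277 and 5013 at day 3. Those *tra1Q3* libraries at day 0 were split between replicate 1 and replicates 2 and 3, which had fitted shares of the aged profiles relative to replicate 1. With all libraries the score was 7.89 (SE 0.996, adjusted p = 2.4e-05, edgeR), and without replicates 2 and 3 it was 4.68. The rise in *tra1Q3* cells was 1.58 and 4.79 in the same 2 fits, so the size of its score rested on those libraries. The same step took the score of *SIP18*, another hydrophilin gene, from 8.03 to 4.64 and that of *MLS1*, malate synthase of the glyoxylate cycle, from 8.02 to 5.03. *PDC6*, a minor pyruvate decarboxylase, had a score of 7.82 with all libraries and 5.49 without them, and moved from a rise in *TRA1* cells only to a rise in both genotypes. It moved in the same way without aged *TRA1* replicate 2.

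In the other direction, *BTN2*, which sorts misfolded proteins into deposits, rose by 1.14 in *TRA1* cells and by 6.89 in *tra1Q3* cells, a score of -5.75 with all libraries and -6.39 without *tra1Q3* day 0 replicates 2 and 3. *APJ1*, an Hsp40 cochaperone gene (YNL077W, chromosome XIV from 481391 to 482977), had 1196, 1226 and 1345 normalized counts in *TRA1* cells at day 0 and 5612, 5718 and 4945 at day 3. Its counts in *tra1Q3* cells were 807, 1094 and 1086 at day 0 and 48330, 47780 and 47900 at day 3. It rose in both genotypes, by 2.11 (SE 0.115) and 5.59 (SE 0.134), with a score of -3.48 (SE 0.161, adjusted p = 1.03e-08, edgeR). *HXT6*, a high-affinity glucose transporter gene, rose from a mean of 6153 to one of 23250 in *TRA1* cells, while the means in *tra1Q3* cells were 3280 and 273500. *HXT6* and *HXT7* are nearly identical and only uniquely mapping reads were kept, so its level is uncertain.

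Of the genes that fell in both genotypes, *HXT4*, a glucose transporter induced at low glucose (YHR092C, chromosome VIII from 287081 to 288811), had 40120, 43990 and 45220 normalized counts in *TRA1* cells at day 0 and 615, 965.8 and 578.9 at day 3. In *tra1Q3* cells it had 7107, 7265 and 6498 at day 0 and 3434, 2873 and 3053 at day 3. *TRA1* cells were above *tra1Q3* cells at day 0 and below them at day 3. Its score was -4.75 (SE 0.237, adjusted p = 1.62e-08, edgeR). *HNM1*, the choline transporter gene, had -2.35 (SE 0.0950), and *HO*, the mating-type switching endonuclease gene, had -2.35 (SE 0.282). A larger fall in *tra1Q3* cells was seen for *DBP2*, a DEAD-box RNA helicase of ribosome biogenesis and RNA folding (YNL112W, chromosome XIV from 413639 to 416281). It had 14720, 15110 and 13420 normalized counts at day 0 and 3685, 3876 and 2987 at day 3 in *TRA1* cells, and 11720, 10040 and 10410 and then 418.1, 405.2 and 365.4 in *tra1Q3* cells. The score was 2.72 (SE 0.149, adjusted p = 3.14e-08, edgeR). *FBA1*, fructose bisphosphate aldolase, fell by 1.24 and by 3.77, and *NUC1*, the mitochondrial nuclease, fell by 1.53 and by 3.84.

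**Figure D4:**
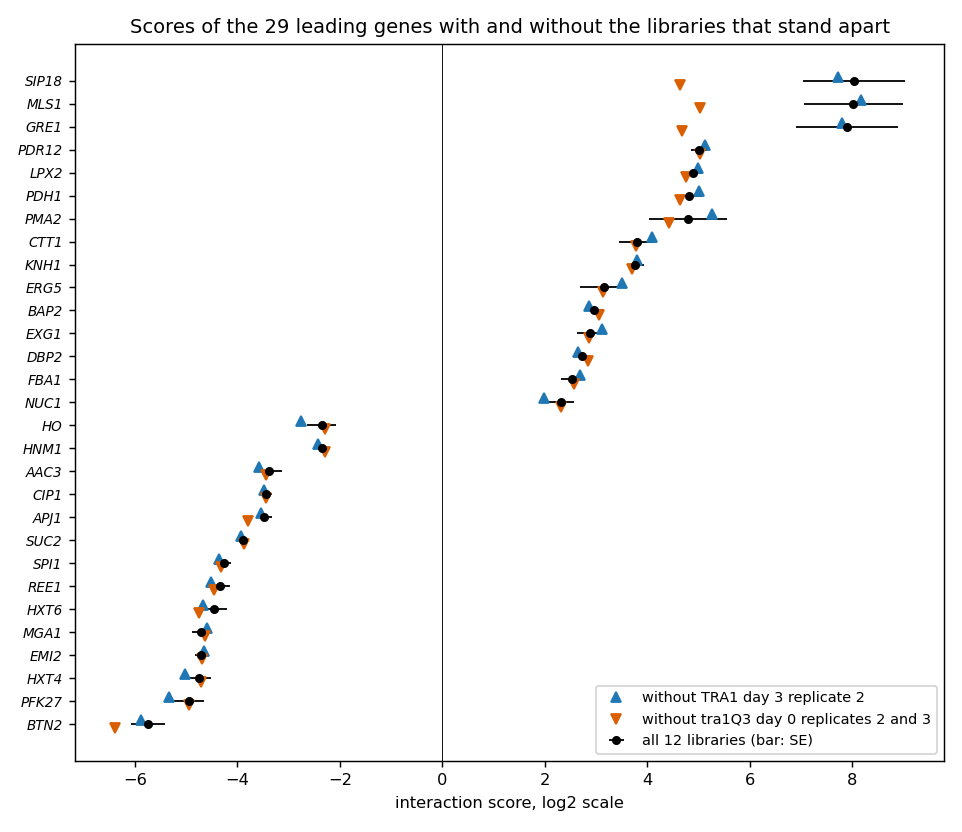
Interaction scores on the log2 scale of the 29 genes named by subclass, with all 12 libraries (black, bar is 1 SE), without TRA1 day 3 replicate 2 (blue) and without tra1Q3 day 0 replicates 2 and 3 (orange). These genes were chosen to keep their subclass in all 3 fits, so only the sizes can be compared. SIP18, MLS1 and GRE1 moved from near 8 to between 4.64 and 5.03 without the day 0 libraries.

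Lists of genes by pathway were then described by their counts and medians, beside the 31.5% of all tested genes that were called and the median score of 0.15. For the glyoxylate cycle and gluconeogenesis, 11 of 12 genes were called with a positive score and none with a negative one, with a median score of 4.10. The median age change was 5.48 in *TRA1* cells and 1.56 in *tra1Q3* cells. *PCK1*, phosphoenolpyruvate carboxykinase, had 317.4, 215.9 and 202.4 normalized counts at day 0 and 82930, 40050 and 77850 at day 3 in *TRA1* cells. In *tra1Q3* cells *PCK1* had 280.6, 878.7 and 896.7 at day 0 and 2004, 2250 and 2169 at day 3, a score of 6.44 (SE 0.580, adjusted p = 1.5e-06, edgeR) and 5.16 without *tra1Q3* day 0 replicates 2 and 3. The median of the list was 3.83 without those replicates.

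Acetate, lactate and carnitine use followed, with 10 of 14 genes called, all positive, and a median score of 1.78. *ADY2*, the acetate transporter gene, rose by 6.58 in *TRA1* cells and by 1.41 in *tra1Q3* cells. For fatty acid beta-oxidation 8 of 14 genes had a called positive score and 1 a negative one, with a median of 1.07. *POT1*, the peroxisomal thiolase, had a score of 5.19 (SE 0.307) and *POX1*, acyl-CoA oxidase, had 3.52 (SE 0.164), whereas *PXA2*, a subunit of the fatty acid importer of peroxisomes, had -1.68. Of 29 peroxin genes, 6 were called positive and 1 negative (24.1%). In the TCA cycle list 6 of 17 were called (35.3%, near the 31.5% of all genes), all positive. Among them was *CIT3*, a mitochondrial citrate synthase, with 3.08. The hydrophilin and stationary-phase list had 10 positive and 3 negative calls among 18 genes, and a median of 1.06. Without *tra1Q3* day 0 replicates 2 and 3 the median was 0.86 and 10 of its genes were called. The iron regulon had 12 positive and 4 negative calls among 25, led by *TIS11*, which promotes decay of mRNAs for iron-using proteins, with 4.41 (SE 0.607) and *FIT2*, a cell wall mannoprotein gene for siderophore iron, with 4.39 (SE 0.201). *MRS4*, a mitochondrial iron carrier, went the other way with -3.03.

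Chaperone lists had mostly negative scores. For cytosolic Hsp70 chaperones and cofactors, 9 of 12 genes were called, all negative, with a median score of -2.04 and median age changes of 0.02 in *TRA1* cells and 1.59 in *tra1Q3* cells. *SSA4*, the stress-induced cytosolic Hsp70 gene (YER103W, chromosome V from 364589 to 366517), had 6426, 6940 and 6887 normalized counts at day 0 and 14750, 9410 and 14280 at day 3 in *TRA1* cells. Its counts in *tra1Q3* cells were 3025, 3827 and 3531 at day 0 and 124900, 134700 and 136300 at day 3. The aged *tra1Q3* libraries were above every other library by a wide margin. Without aged *TRA1* replicate 2 the rise in *TRA1* cells was called too. The score of *SSA4* was -4.33 (SE 0.226, adjusted p = 2.31e-08, edgeR), and *FES1*, a nucleotide exchange factor of Hsp70, had -3.58 (SE 0.135).

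The Hsp90 list had 6 negative calls and 1 positive call among 13 genes. *HSP82*, the stress-induced Hsp90 gene, had age changes of 0.44 in *TRA1* cells and 3.36 in *tra1Q3* cells, with a score of -2.92 (SE 0.179). *CPR6*, a cyclophilin that binds Hsp90, had -3.85, with an overlapping coding sequence. *CNS1*, an Hsp90 cochaperone, fell by 1.85 in *tra1Q3* cells only and had a score of 1.33. For mitochondrial chaperones and proteases 6 of 13 genes were called, all negative, such as *MDJ1*, an Hsp40, with -3.04 (SE 0.112) and *HSP78*, the disaggregase of the matrix, with -3.01 (SE 0.126). Small heat-shock and sorting proteins had 5 negative and 2 positive calls among 9. Of the 36 genes for the proteasome and its activator *RPN4*, 3 were called (8.33%), or 5 without aged *TRA1* replicate 2, and *RPN4* itself had -1.15.

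Negative scores were also counted for nitrogen catabolite repression genes, with 14 of 27 called and none positive. *PUT1*, proline oxidase, rose by 2.54 in *TRA1* cells and by 5.33 in *tra1Q3* cells, a score of -2.80 (SE 0.266). For sulfate assimilation and methionine 13 genes were called negative and 1 positive among 28. *MUP3*, a low-affinity methionine permease gene, had a score of -3.84, and *SUL1*, a sulfate permease gene, had 2.03. Trehalose and glycogen genes had 8 negative calls among 22 and none positive (36.4% called, near the 31.5% of all genes). *GSY2*, glycogen synthase, fell by 1.91 in *TRA1* cells and had a change of 0.98 in *tra1Q3* cells, which was called without aged *TRA1* replicate 2. Among 18 cyclins and Cdc28 inhibitors 6 were called (33.3%, also near the share of all genes), all negative. *CLB2*, a mitotic cyclin gene, fell by 3.38 and by 1.80.

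**Figure D5:**
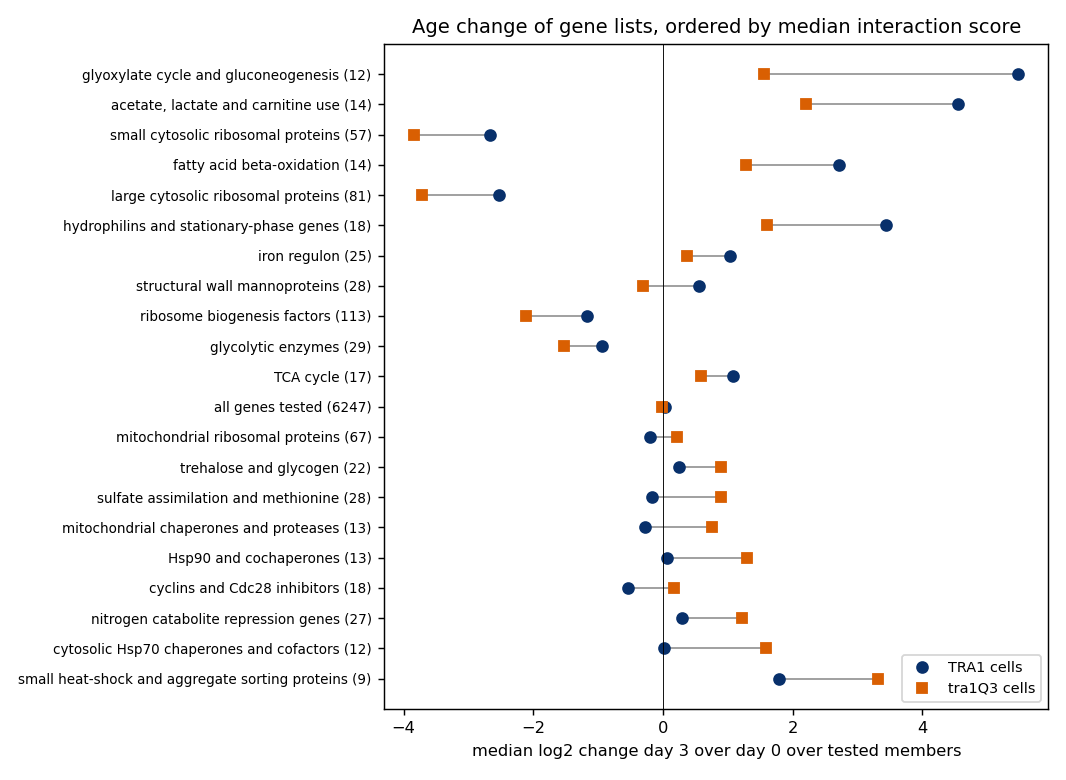
Median age change (log2) over the tested members of each list (number in brackets) in TRA1 cells (circles) and tra1Q3 cells (squares), ordered by median interaction score. Shown are all genes tested and, among lists of at least 9 tested genes, 11 from the positive end and 9 from the negative end of the median scores. The glyoxylate and gluconeogenesis list moved from 5.48 in TRA1 to 1.56 in tra1Q3 cells, and both lists of cytosolic ribosomal proteins had lower values in tra1Q3 cells.

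Genes for cytosolic ribosomes fell in both genotypes. Among those of the small subunit 56 fell in *TRA1* cells and 57 in *tra1Q3* cells, and among those of the large subunit 74 and 78 did. For the small subunit the interaction of 34 of 57 genes was called, all positive, with median age changes of -2.68 in *TRA1* cells and -3.84 in *tra1Q3* cells. For the large subunit 44 were called positive and 2 negative among 81, with medians of -2.54 and -3.71. Without aged *TRA1* replicate 2 the counts of called genes were 27 and 41. *RPS0A* had 22780, 23570 and 23170 normalized counts at day 0 and 4790, 5490 and 4688 at day 3 in *TRA1* cells. In *tra1Q3* cells *RPS0A* had 24440, 21580 and 23800 at day 0 and 1022, 1011 and 1071 at day 3, a score of 2.28 (SE 0.112, adjusted p = 1.49e-08, edgeR). Many ribosomal protein genes have a close paralog, and counts of such pairs can be split unevenly between the copies. *RPL26B*, with a score of -1.41, is one of the 2 that went the other way.

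Of 113 ribosome biogenesis factors, 38 were called positive and 2 negative (35.4% called, near the 31.5% of all genes). Their median score was 0.82. Without aged *TRA1* replicate 2 the median was 0.48, and 25 of the factors were called, beside 1972 of all 6232 genes tested in that fit. *NSR1*, a nucleolar protein of 18S rRNA processing, had 2296, 5794 and 1671 normalized counts in aged *TRA1* cells and 405.8, 378.3 and 388.5 in aged *tra1Q3* cells. Its score was 2.96 (SE 0.486) and 2.24 without that replicate, and its coding sequence overlaps another one. *NSA1*, a pre-60S assembly factor, went the other way and rose by 1.94 in *tra1Q3* cells only. For amino acid biosynthesis and *GCN4* 19 of 59 genes were called positive and 1 negative (33.9% called, also near the share of all genes).

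Subunits of the complexes that hold Tra1 are given next. Among 21 SAGA genes 2 were positive and 3 negative (23.8% called). Among 13 NuA4 genes 2 were positive and 2 negative (30.8% called). The share of all tested genes was 31.5%, so neither list stood above it. With library totals 2 NuA4 genes were called, and *TRA1* itself and *ARP4* then had scores of -0.99 and -0.95, short of the size threshold. *ADA2*, an adaptor of the SAGA acetyltransferase module, had 814.9, 847.3 and 750.5 normalized counts at day 0 and 476.4, 594.7 and 527 at day 3 in *TRA1* cells. In *tra1Q3* cells *ADA2* had 1145, 1178 and 1116 at day 0 and 3268, 2895 and 3294 at day 3, a score of -2.05 (SE 0.123, adjusted p = 6.25e-08, edgeR). *HFI1*, a SAGA core subunit, fell by 2.24 in *tra1Q3* cells only and had a score of 1.37. Of 19 genes in the kinase list 1 was positive and 5 were negative (31.6% called, near the share of all genes). From that list *LST8*, a TORC1 and TORC2 subunit, rose in both genotypes, by 1.20 and by 3.22. Without aged *TRA1* replicate 2 its change in *TRA1* cells was 0.92 and no longer called.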

How the data were processed

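Reads had been trimmed with Trimmomatic and aligned with STAR 2.5.4b to the S288C genome (build R64) by the authors, who counted uniquely mapping reads over coding sequences with featureCounts 1.6.0 and set no strand option. Antisense or overlapping genes therefore cannot be told apart. The authors deposited raw counts per gene for read pairs and for single reads, and both were added here (single reads were 12.5% to 18.1% of a library). The row without a gene name (0.0851% of counts) was left out.

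The summed counts went into edgeR 4.0.16 (R 4.3.3; TMM, glmQLFit, glmQLFTest), in which each of the 4 groups of 3 libraries had its mean, after a filter of 10 counts in 3 libraries. P-values were adjusted by Benjamini-Hochberg over all 6247 genes. For normalized counts, each count was scaled by the effective (TMM) library size relative to the mean over libraries. Libraries held 20662125 to 28079682 counts, and replicates are those of the labels.

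The genes and lists described were chosen with earlier results of these data known. Per subclass, the 3 genes with the largest absolute score were named. They had to have a standard name, no overlapping coding sequence, a highest group mean of 100 or more normalized counts, and the same subclass without the libraries that stand apart. One gene that the rule selects is not reported here. From each list described, the 2 genes with the largest score in each direction could be named. Alternatives were DESeq2 1.42.0, limma 3.58.1 with voom quality weights, other size factors, no filter, read pairs only, other thresholds, glmTreat, replicate blocks, each library left out, and removal of the fitted aged shares. Promoter windows came from the R64 RefSeq genome, in which 99.92% of the nuclear coding sequences of the table start with ATG. Figures used Python 3.11.15 with numpy 2.4.6, pandas 2.3.3 and matplotlib 3.10.9.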

Additional observations from a re-analysis of the deposited data

Results flagged for a closer look

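The 29 genes named by subclass were chosen for a called interaction, a large score and a subclass kept without the libraries that stand apart. That each of them passed the interaction test, and their low adjusted p below, were therefore largely fixed by the choice. Their scores are listed for their size. On the positive side *SIP18*, *MLS1* and *GRE1* had scores of 8.03, 8.02 and 7.89, *PDR12*, *CTT1* and *KNH1* had 5.01, 3.80 and 3.76, and *LPX2*, *PDH1* and *PMA2* had 4.88, 4.82 and 4.80. The scores of *ERG5*, *BAP2* and *EXG1* were 3.15, 2.96 and 2.89, and those of *DBP2*, *FBA1* and *NUC1* were 2.72, 2.53 and 2.31. On the negative side *BTN2*, *HXT6* and *APJ1* had -5.75, -4.46 and -3.48, *PFK27*, *EMI2* and *MGA1* had -4.95, -4.72 and -4.71, and *REE1*, *SPI1* and *SUC2* had -4.34, -4.27 and -3.89. The scores of *CIP1* and *AAC3* were -3.45 and -3.38, and those of *HXT4*, *HNM1* and *HO* were -4.75, -2.35 and -2.35. Over the alternative fits the highest adjusted p of any of these genes was 0.00294, for *PMA2*.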

How the results depend on the processing

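No called score of a named gene changed sign under any alternative. In the 12 fits that each lacked one library, the count of genes over 1 ran from 1926 to 1994, that over 2.5 from 264 to 284, and that of opposite directions from 55 to 62. Testing the score against the threshold itself with glmTreat gave 1199 genes over 1 and 113 over 2.5. With a threshold of 2 there were 4 genes with opposite directions, 153 called in *TRA1* cells only, 162 in *tra1Q3* cells only, 46 with the same direction and other size, and 129 in neither. With a threshold of 0.5 there were 279 genes with opposite directions, 709 in *TRA1* cells only and 1453 with the same direction. Without aged *TRA1* replicate 2, 1781 of the 1968 genes (90.5%) were called again and 84.8% kept their subclass. With library totals the split was 1328 positive to 745 negative, against 1116 to 852. Aliquots were taken at both days, so equal numbers within a genotype may mark one culture, which the labels do not say. Deviations of libraries with the same genotype and number correlated by -0.0513 to 0.0159, so no shared effect was detected and no pairing was used. A replicate block gave 1936 genes over 1, and a block by culture 1882. Scores near 1 depend on the setting, as for *VEL1*, with -0.99 without aged *TRA1* replicate 2. Genes with few counts, such as *AAC3*, carry more counting error, but the SE of a score also reflects the spread of replicates. It was 0.254 for *AAC3* and 0.757 for *PMA2*, whose aged *TRA1* replicates differed widely. The cause of the shifts between settings was not tested.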

Other observations

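Glycolytic enzymes had called interactions in both directions, 12 positive and 6 negative among 29 genes (62.1% called, against 31.5% of all genes). Their median age changes were -0.95 in *TRA1* cells and -1.52 in *tra1Q3* cells. *FBA1* and *PDC6* had the largest positive scores, and *PFK27* and *HXK1* the largest negative ones. The structural mannoproteins of the cell wall were also split, with 12 positive and 6 negative among 28 (64.3% called). *PIR3* rose in *TRA1* cells only, with a score of 2.77, whereas *TIP1* fell by 3.59 in *TRA1* cells and had a change of -0.95 in *tra1Q3* cells. Among 43 autophagy and vacuolar protease genes 13 were positive and 2 negative (34.9% called, near the 31.5% of all genes). *ATG1*, the kinase that starts autophagy, had age changes of 1.98 and -0.12 and a score of 2.10 (SE 0.234, adjusted p = 8.79e-06, edgeR), and *ATG5*, needed for lipidation of Atg8, went the other way with -1.43.

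Of 67 mitochondrial ribosomal protein genes 11 were negative and 1 positive (17.9% called, against 31.5% of all genes), with a median score of -0.48. Without aged *TRA1* replicate 2 the median was -0.78 and 16 genes were called. *MRPL31* had age changes of -0.33 and 1.64. In the respiratory chain list of 40 genes, *NDE2*, an external NADH dehydrogenase, had a score of 3.43, and *COX5B*, the cytochrome c oxidase subunit used at low oxygen, had -2.30. The Zap1 zinc regulon had 8 positive and 4 negative calls among 20 genes (60.0% called), and its most negative member was *INO1*. Of 25 phosphate regulon genes 6 were positive and 3 negative (36.0% called), with a median score of -0.12. In that list *PHO89*, a phosphate transporter gene, rose by 6.04 in *TRA1* cells and by 1.90 in *tra1Q3* cells. The list of 23 thioredoxin, glutathione and Yap1 genes had 6 positive and 2 negative calls (34.8% called). There *OYE2*, an NADPH oxidoreductase gene, had opposite age changes of -1.46 and 1.08, and its paralog *OYE3* had 4.28 and 1.93. The score of *OYE3* was 2.35, and without *tra1Q3* day 0 replicates 2 and 3 it was 2.14 with an adjusted p of 0.0561 (edgeR), in a fit with 1 library in that group.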
